A study of Mus musculus with 10 samples.

Results

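Expression of 10 genes of triglyceride assembly was measured by RNA sequencing of the livers of 10 male C57BL/6 mice, 21 weeks old per the labels. The study's methods give the substrain as C57BL/6 J and a slightly lower age. The genes were taken by symbol from the 24421 rows of the count table, and all 10 had a row: Gpam, Agpat2, Agpat3, Lpin1, Lpin2, Dgat1, Dgat2, Mogat1, Pnpla3 and Pnpla5. The Chow group (n = 5) ate standard chow with no drug. The TM5614 group (n = 5) ate the same chow with TM5614, an oral small molecule inhibitor of PAI-1 (plasminogen activator inhibitor-1), at 20 mg/kg/day for 10 days. Both groups were wild type, and each mouse gave 1 library, so the p-values describe the spread between mice within this one experiment. The comparison asked which steps of triglyceride assembly differed in hepatic mRNA between treated and untreated mice.

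Hepatocytes build triglyceride mainly by the glycerol phosphate pathway, in which acyl chains are added one after another to glycerol 3-phosphate. A glycerol 3-phosphate acyltransferase makes lysophosphatidic acid, an acylglycerol phosphate acyltransferase makes phosphatidic acid, a lipin removes the phosphate to give diacylglycerol, and a diacylglycerol acyltransferase adds the last acyl chain. A monoacylglycerol acyltransferase offers a side entrance to diacylglycerol, and patatin-like proteins act on the finished lipid in droplets.

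Dgat2, which encodes a diacylglycerol acyltransferase of the last step, fell by 41.4% in TM5614, from 494 ± 81.3 to 289.5 ± 22.3 CPM (counts scaled to a common library size, SD, n = 5 per group). Of the 10 genes, 7 had enough counts to be tested, and Dgat2 was the 1 with an adjusted p under 0.05 in edgeR's quasi-likelihood test. Over all 11092 genes tested 4.5% passed that threshold, and 2.77% passed it with a lower and 1.73% with a higher level in TM5614. The median log2 fold change was -0.08 over the 7 genes and 0.01 over all genes tested. The other 6 genes tested were not called. The values of most of them are given by library because leaving out 1 library changed their sign or call.

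Total counts per library ran from 6398335 to 10874955. Chow replicate 2 stood apart: 43.5% of the variance of its deviations from the median of all libraries followed the GC content and length of the genes, against 0.825% to 11.1% in the others. TM5614 replicate 2 held skeletal muscle transcripts, with 4005 CPM summed over 10 muscle markers. The sum ran from 1.27 to 2.03 CPM in Chow. It was 1.87, 66.0, 6.51 and 4.11 CPM in TM5614 replicates 1, 3, 4 and 5, so a lesser muscle signal was present in other TM5614 libraries. All 10 of these markers were above their Chow maximum in TM5614 replicate 2. The summed CPM of 8 white adipocyte markers was 120.0 there, 48.1 to 61.5 in the other TM5614 libraries and 28.9 to 52.4 in Chow. Within that list Cidec, a droplet protein gene, was called higher in TM5614 (log2 fold change 2.43, edgeR adjusted p = 0.00034), and the defining adipocyte gene Adipoq had 57 counts in TM5614 replicate 2, 28 in Chow replicate 5 and 0 to 11 in the other libraries. The 6 hepatocyte markers summed to between 102765 and 131526 CPM in every library, and none of the 6 was called. Values without one or other of these libraries are given beside the results they change.

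Levels of different genes can be compared only per gene length, and for this the FPKM values of the authors were used. In Chow livers Dgat2 had the highest level, at 217 ± 35.6 FPKM (SD, n = 5), and its lowest library was above the highest library of every other gene of the set. Agpat2 followed with 97.8 ± 30.6 FPKM, Lpin2 with 78.9 ± 17.8 FPKM and Agpat3 with 73.0 ± 6.45 FPKM, and the ranges of these 3 genes overlapped. A lower tier held Lpin1 (30.1 ± 11.9 FPKM), Gpam (26.9 ± 12.7 FPKM) and Dgat1 (15.4 ± 4.05 FPKM), whose ranges overlapped among themselves and stayed below those of the tier above. Mogat1 was at 0.771 ± 0.458 FPKM, Pnpla3 at 0.0472 ± 0.0251 FPKM, and Pnpla5 was listed at 0 in every library. In TM5614 livers Dgat2 still had the highest mean, 127 ± 10.5 FPKM, but its range of 116 to 140.4 FPKM now overlapped that of Agpat2, 98.2 to 118 FPKM. Gpam (30.5 ± 7.15 FPKM) and Lpin1 (18.9 ± 19.5 FPKM) changed places in the order, and so did Agpat3 (77.9 ± 7.32 FPKM) and Lpin2 (74.8 ± 23.2 FPKM), and the ranges overlapped within each pair.

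**Figure D1:**
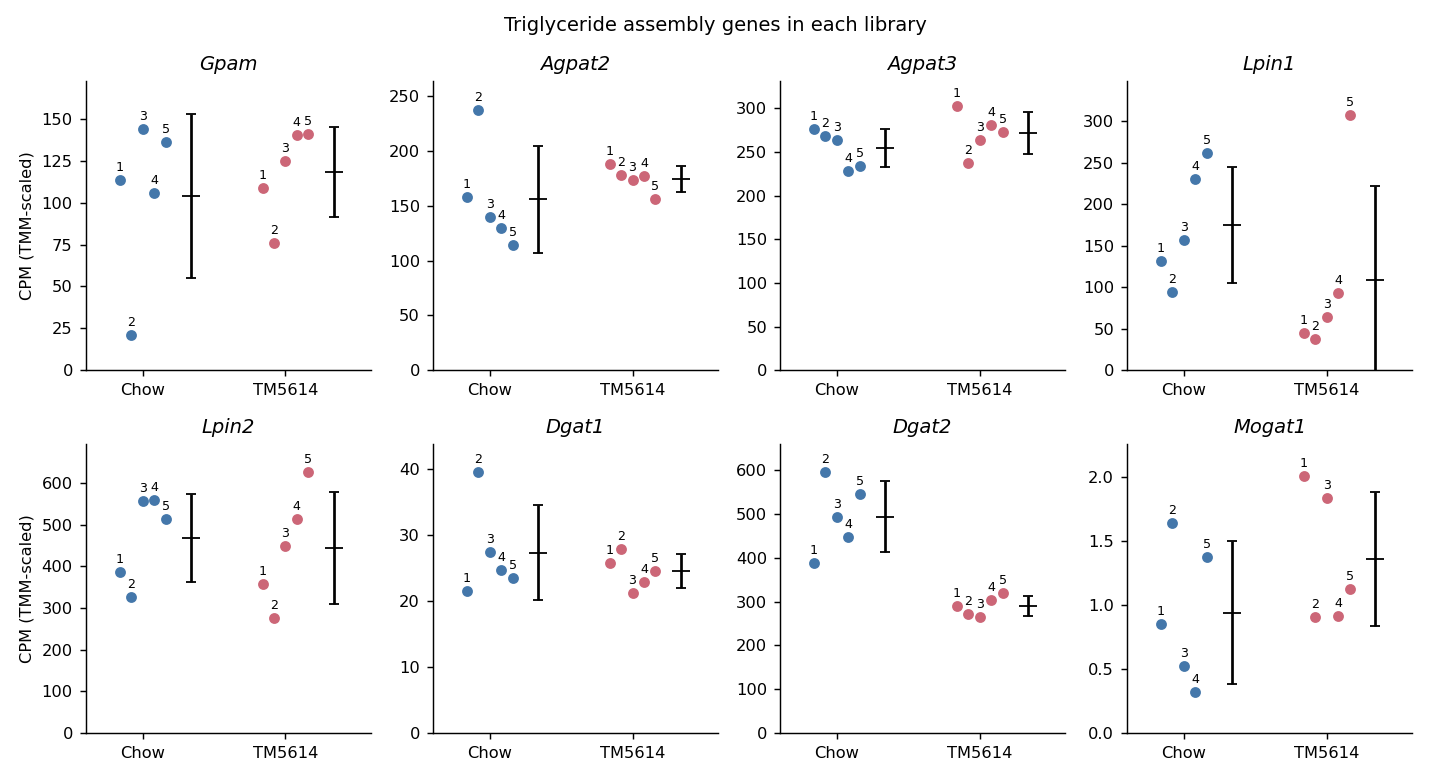
CPM of 8 genes in each library, with 1 panel per gene, the vertical axis from 0, Chow in blue, TM5614 in red, replicate numbers above the points, and black bars for the mean ± SD (n = 5; the lower end of the TM5614 bar of Lpin1 lies below 0 and is not drawn). The Dgat2 points of the 2 groups do not overlap, Gpam is low in Chow replicate 2 at 21.0 CPM, and Lpin1 is high in TM5614 replicate 5 at 307 CPM.

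The first step was represented by Gpam (chromosome 19, 55067268 to 55127238, minus strand, GRCm38), which encodes the glycerol 3-phosphate acyltransferase of the mitochondrial outer membrane. In Chow replicates 1 to 5 Gpam stood at 114, 21.0, 144, 106 and 136 CPM. In TM5614 replicates 1 to 5 it stood at 109, 76.0, 125, 140.2 and 141 CPM. Chow replicate 2 was thus far below the other 4 Chow libraries, whose range overlapped that of TM5614. The group means were 104 ± 49.1 and 118 ± 27.0 CPM, and the log2 fold change was 0.18, with a 95% interval from -0.64 to 1.01 (edgeR adjusted p = 0.809, SE 0.38). Without Chow replicate 2 the estimate changed sign to -0.09 (edgeR adjusted p = 0.808, SE 0.17). The low value rested on 218 counts. Correcting each library for its trend on GC content and length moved it only to 24.7 CPM.

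The next step is carried by the acylglycerol phosphate acyltransferases. Agpat2 (chromosome 2, 26593057 to 26604417, minus strand) encodes the isoform whose loss causes generalised lipodystrophy. Its Chow values were 158, 238, 139, 129.6 and 114 CPM in replicates 1 to 5. Its TM5614 values were 188, 178, 174, 177 and 156 CPM. Outside Chow replicate 2, which was the highest library of all, just 1 Chow library reached the lower end of the TM5614 range. The means were 156 ± 48.5 and 175 ± 11.7 CPM, and the log2 fold change of 0.16, with a 95% interval from -0.22 to 0.55 (edgeR adjusted p = 0.613, SE 0.18), was smaller than the spread. Agpat2 was called higher in TM5614 once Chow replicate 2 was left out (log2 fold change 0.36 ± 0.10 SE, edgeR adjusted p = 0.0348). It was also called after the correction for GC content and length (0.45, SE 0.10, edgeR adjusted p = 0.0146). That correction put Chow replicate 2 at 132 CPM, and the corrected values ran from 119 to 160.2 CPM in Chow and from 170.0 to 200.2 CPM in TM5614 with no overlap. The correction also raised TM5614 replicates 3, 4 and 5, from 174, 177 and 156 to 200.2, 191 and 171 CPM. It lowered TM5614 replicates 1 and 2, from 188 and 178 to 187 and 170.0 CPM. Leaving out 1 Chow library was thus enough for the Agpat2 call, while the corrected values also rested on shifts in TM5614 libraries. Agpat2 shares 64 exonic bases with Egfl7 on the opposite strand, a gene of 45 to 221 counts per library, and nothing says if reads were assigned by strand.

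Agpat3 (chromosome 10, 78269178 to 78352489, minus strand) encodes a related acyltransferase that prefers polyunsaturated acyl chains. Its coefficient of variation in Chow, 8.52%, was the lowest of the 7 genes tested. The Chow libraries ran from 228 to 276 CPM and the TM5614 libraries from 238 to 303 CPM, nearly the same range. The means were 254 ± 21.6 and 272 ± 23.9 CPM, and the log2 fold change was 0.10, with a 95% interval from -0.13 to 0.32 (edgeR adjusted p = 0.614, SE 0.10). The upper end of this interval leaves room for a small rise.

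Phosphatidic acid is turned into diacylglycerol by the lipins. Lpin1 (chromosome 12, 16535669 to 16610966, minus strand) encodes lipin 1, which also acts in the nucleus as a coactivator of genes of fatty acid oxidation and is known to be induced by fasting. Lpin2 (chromosome 17, 71182560 to 71249817, plus strand) encodes the lipin that is abundant in liver. Both carry a catalytic motif of 5 codons built on a pair of aspartates. The coding bases around it are shown because the 2 genes are compared within each library, and reads could only be told apart where the sequences differ. The motif codons are in capitals, each stretch joins 2 exons, and 17 of the 75 bases differed (77.3% identical).
Lpin1 (chr12:16547486-16547538, exon 16, and chr12:16546786-16546807, exon 17, minus strand): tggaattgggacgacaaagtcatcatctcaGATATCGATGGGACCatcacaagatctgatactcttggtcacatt
Lpin2 (chr17:71243384-71243436, exon 15, and chr17:71243925-71243946, exon 16, plus strand): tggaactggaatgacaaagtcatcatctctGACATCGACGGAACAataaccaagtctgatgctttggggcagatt
The sequencing reads were 75 bases long, and no 75-base window of the principal Lpin1 or Lpin2 transcript occurred in another annotated gene.

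Lpin1 was low in 4 of the 5 TM5614 livers and highest of all in the other. The Chow replicates 1 to 5 had 131, 94.0, 156, 231 and 262 CPM. The TM5614 replicates 1 to 5 had 44.5, 37.4, 64.7, 92.8 and 307 CPM. TM5614 replicates 1 to 4 were all below the lowest Chow library, while TM5614 replicate 5 was above the highest. Means were 175 ± 69.7 and 109 ± 113 CPM, and the log2 fold change of -0.67, with a 95% interval from -1.82 to 0.47 (edgeR adjusted p = 0.484, SE 0.52), did not pass. Without TM5614 replicate 5 it was -1.54 (edgeR adjusted p = 0.0351, SE 0.34) and passed. The Lpin1 call thus changed with 1 library, and it also changed with the model, as given under the processing. The log2 fold change thereby moved from -0.67 to -1.54. The 2 fits share all the other libraries, so their standard errors do not measure the spread of this shift.

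Lpin2 had 386, 327, 557, 559.8 and 515 CPM in Chow replicates 1 to 5. It had 358, 277, 449, 514 and 626 CPM in TM5614 replicates 1 to 5. The 2 groups covered much the same range, with means of 469 ± 106 and 445 ± 135 CPM and a log2 fold change of -0.08, with a 95% interval from -0.55 to 0.40 (edgeR adjusted p = 0.866, SE 0.22). The estimate changed sign, to 0.05, without TM5614 replicate 2. Because both lipins were counted in the same libraries, their ratio does not depend on the scaling between libraries. The log2 ratio of Lpin1 to Lpin2 counts averaged -1.49 ± 0.362 (SD, n = 5) in Chow, where it ran from -1.83 to -0.98. It averaged -2.44 ± 0.814 in TM5614. TM5614 replicates 1 to 4 lay between -3.01 and -2.47, below every Chow library, and TM5614 replicate 5 lay at -1.03, inside the Chow range.

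**Figure D2:**
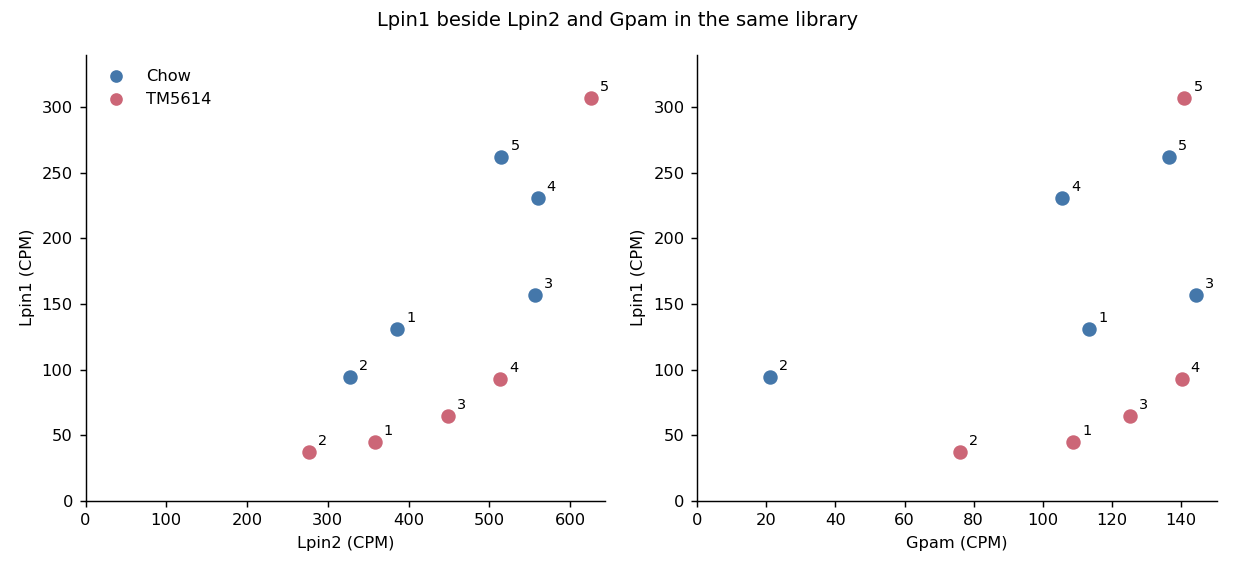
Lpin1 plotted against Lpin2 (left) and against Gpam (right), in CPM on linear axes from 0, with 1 point per library, Chow in blue, TM5614 in red and the replicate number beside each point. TM5614 replicates 1 to 4 lie at 37.4 to 92.8 CPM of Lpin1 while their Lpin2 spans 277 to 514 CPM, and TM5614 replicate 5 is the highest point for Lpin1 and Lpin2.

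Gpam, Lpin1 and Lpin2 ranked the mice alike inside the TM5614 group. All 3 genes were lowest in TM5614 replicate 2, followed by replicates 1, 3, 4 and 5. In the Chow group all 3 were lowest in replicate 2 by uncorrected CPM. Lpin1 had the order 2, 1, 3, 4 and 5 in Chow as well, while Gpam had 2, 4, 1, 5 and 3 and Lpin2 had 2, 1, 5, 3 and 4. The 2 libraries at the bottom were also those that stood apart for other reasons, Chow replicate 2 by GC content and length and TM5614 replicate 2 by muscle transcripts. The transcripts of these 3 genes have GC contents of 48.6%, 50.1% and 49.2%. The genes of higher GC content went the other way in Chow replicate 2: Agpat2 (58.0%), Dgat1 (56.5%) and Dgat2 (56.3%) were each highest there among the Chow libraries. The trend fitted to all genes in Chow replicate 2 was 0.84 on the log2 scale for Agpat2, 0.59 for Dgat1 and 0.58 for Dgat2, and it was -0.23 for Gpam, -0.25 for Lpin1 and -0.38 for Lpin2. After correction for this trend Lpin2 in Chow replicate 2 stood at 425 CPM, above the 392 CPM of Chow replicate 1. Gpam and Lpin1 remained lowest in Chow replicate 2, at 24.7 and 112 CPM. No such trend was seen in TM5614 replicate 2, where the fitted values for these 6 genes lay between -0.05 and 0.06. Without TM5614 replicate 2 the log2 fold changes were 0.31 for Gpam, -0.46 for Lpin1 and 0.05 for Lpin2, and none of the 3 was called. The part of muscle RNA in its low values was not tested.

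The last step has 2 enzymes of unrelated sequence. Dgat1 (chromosome 15, 76502015 to 76511953, minus strand) encodes a member of the membrane-bound O-acyltransferase family. Dgat2 (chromosome 7, 99153658 to 99182719, minus strand) encodes the enzyme that is associated with newly made fatty acids and with droplets, and it shares its family with the monoacylglycerol acyltransferase Mogat1 (chromosome 1, 78510991 to 78538173, plus strand). The motif of 4 codons that marks this family, with a catalytic histidine, is shown in capitals in the coding bases of Dgat2, the gene that fell, and of Mogat1, its relative with hardly any counts. Of the 75 bases 31 differed (58.7% identical).
Dgat2 (chr7:99158943-99159017, exon 5, minus strand): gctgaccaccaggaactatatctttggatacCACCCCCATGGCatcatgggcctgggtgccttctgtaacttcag
Mogat1 (chr1:78523594-78523668, exon 4, plus strand): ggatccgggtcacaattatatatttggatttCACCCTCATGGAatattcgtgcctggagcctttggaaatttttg
No 75-base window of the principal Dgat2 or Dgat1 transcript occurred in another annotated gene.

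Dgat2 had 387, 595, 493, 448 and 546 CPM in Chow replicates 1 to 5. In TM5614 replicates 1 to 5 it had 289, 271, 266, 303 and 319 CPM. Every TM5614 liver was below every Chow liver. Groups that did not overlap were found in 8.93% of all genes tested, and Dgat2 was the 1 such gene among the 7. The log2 fold change was -0.77, with a 95% interval from -1.04 to -0.50 (edgeR adjusted p = 0.00476, SE 0.13). In bulk liver RNA, fewer cells of a type and less RNA per cell cannot be told apart. The Chow library with the most Dgat2, replicate 2, was the one with the GC content trend, and the correction lowered it from 595 to 398 CPM. Corrected values ran from 394 to 556 CPM in Chow and from 262 to 339 CPM in TM5614, still with no overlap, and the log2 fold change was then -0.60 (edgeR adjusted p = 0.0077). Without Chow replicate 2 it was -0.70 (edgeR adjusted p = 0.00133). Without TM5614 replicate 2, the library with the most muscle and adipocyte transcripts, it was -0.75 (edgeR adjusted p = 0.0168). Over all 23 other fits it stayed between -0.86 and -0.52 with an adjusted p of at most 0.0217, the smallest size being on the shrunken log2 scale of the authors.

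Dgat1 was expressed at a much lower level and the difference between groups was smaller than the spread. The Chow libraries had 21.5, 39.5, 27.4, 24.7 and 23.4 CPM in replicates 1 to 5, and the TM5614 libraries had 25.7, 27.9, 21.2, 22.9 and 24.5 CPM. Chow replicate 2 was the highest and the other 9 libraries shared 1 range. The log2 fold change was -0.16, with a 95% interval from -0.52 to 0.20 (edgeR adjusted p = 0.596, SE 0.17). Without Chow replicate 2 it was 0.0032, and after the correction for GC content and length it was 0.03. Counts of Dgat1 were 156 to 410 per library.

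The balance of the 2 enzymes was also read within each library, as a description with no test. The log2 ratio of Dgat2 to Dgat1 counts was 4.20 ± 0.226 (SD, n = 5) in Chow, with libraries from 3.91 to 4.55. It was 3.57 ± 0.187 in TM5614, with libraries from 3.28 to 3.73. The 2 ranges did not overlap, and the mean difference was -0.63. Chow replicate 2 had the lowest ratio of its group and TM5614 replicate 2 the lowest of all. Dgat2 held 26.0% to 37.6% of the counts of the 10 genes in Chow libraries and 17.3% to 24.5% in TM5614 libraries, also with no overlap. The 37.6% belonged to Chow replicate 2, and the remaining Chow libraries held 26.0% to 29.8%, a narrower gap to TM5614. These are shares of raw counts, not scaled by gene length. The log2 ratio of Agpat2 to Agpat3, another pair at one step, overlapped between the groups, with means of -0.75 ± 0.335 in Chow and -0.64 ± 0.142 in TM5614. That overlap came from Chow replicate 2 alone, at -0.18. The remaining Chow libraries, from -1.04 to -0.807, lay below all TM5614 libraries, from -0.805 to -0.418, by a narrow margin.

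**Figure D3:**
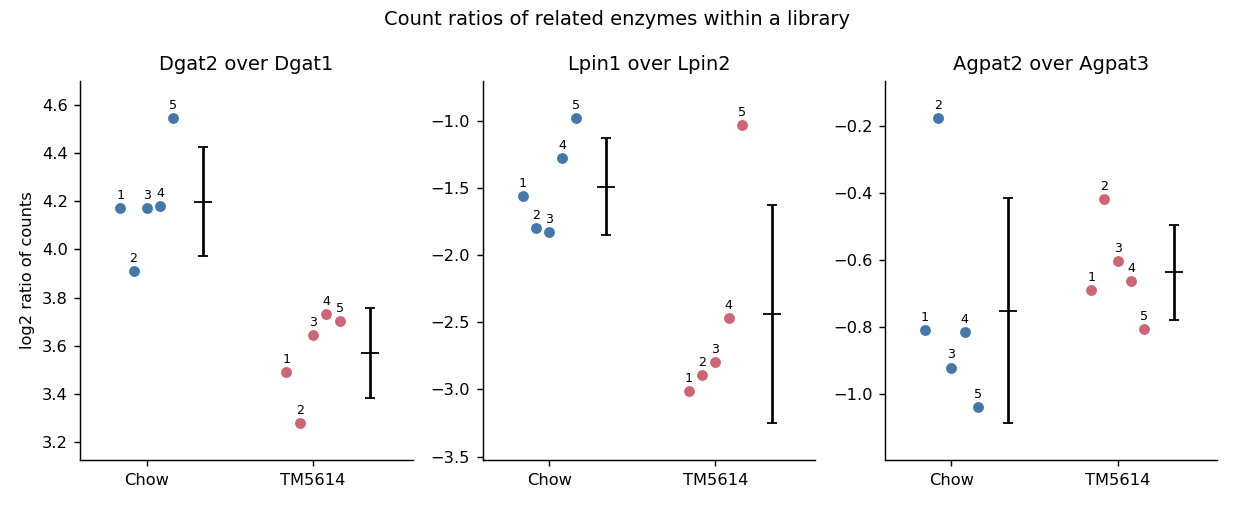
Log2 ratio of the counts of 2 enzymes of the same step in each library, with 1 panel per pair, vertical axes of different ranges that do not start at 0, Chow in blue, TM5614 in red, replicate numbers above the points and black bars for the mean ± SD (n = 5). Dgat2 over Dgat1 is at 3.91 to 4.55 in Chow and at 3.28 to 3.73 in TM5614, while TM5614 replicate 5 lies at -1.03 for Lpin1 over Lpin2 and Chow replicate 2 at -0.18 for Agpat2 over Agpat3.

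Mogat1, Pnpla3 and Pnpla5 did not pass the filter on low counts. Mogat1, whose product acylates monoacylglycerol, had 7, 17, 5, 2 and 15 counts in Chow replicates 1 to 5 and 14, 7, 16, 8 and 11 counts in TM5614 replicates 1 to 5. These were 0.942 ± 0.560 and 1.36 ± 0.525 CPM with wide overlap. A fit with no filter gave a log2 fold change of 0.48 (adjusted p = 0.581 in edgeR, SE 0.44), so a change was not detectable at this depth. Of the 75-base windows of its transcript 10.1% also lie in a gene on the opposite strand, which adds to the uncertainty.

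Pnpla3 (chromosome 15, 84167837 to 84187236, plus strand) and Pnpla5 (chromosome 15, 84112356 to 84123175, minus strand) encode patatin-like proteins of lipid droplets and lie close together. Pnpla3 had 0 to 5 counts per library, 10 in all in Chow and 11 in all in TM5614. Pnpla5 had 0 counts in every library, which allows a level of up to 0.0661 CPM in Chow and 0.0716 CPM in TM5614 (3 counts over the group, for counting error only). The fit with no filter gave Pnpla3 a log2 fold change of 0.26 (adjusted p = 0.883 in edgeR, SE 0.75), and Pnpla5 had nothing to fit. A change of either gene was not detectable at this depth.

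**Figure D4:**
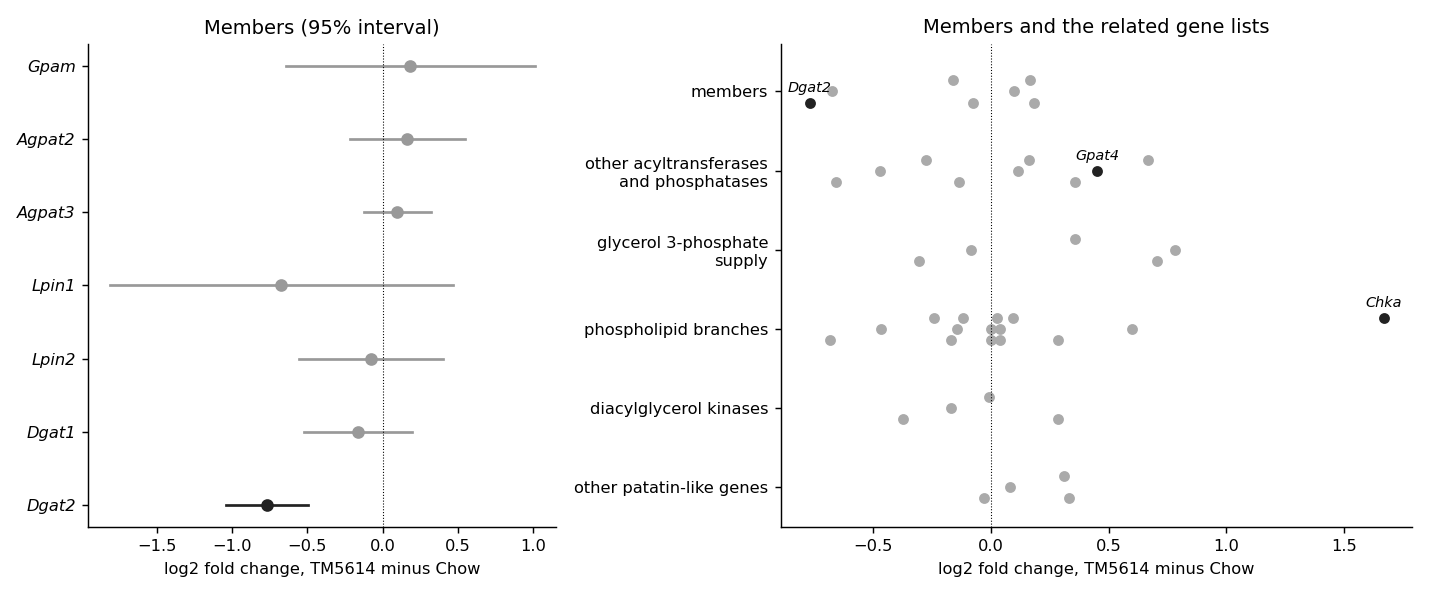
Log2 fold change of TM5614 against Chow, on the left for the 7 genes tested with their 95% intervals and on the right for these genes and for 5 lists of related genes, with 1 point per gene tested and black for an edgeR adjusted p under 0.05. Dgat2 at -0.77, Gpat4 at 0.45 and Chka at 1.67 are the genes in black, and the interval of Lpin1, from -1.82 to 0.47, is the widest on the left.

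The reactions around these enzymes were covered by 5 lists with 51 genes, of which 37 were tested. Of these, 2 were called (5.41%, against 4.5% of all genes), both higher in TM5614. Among 9 other acyltransferases and phosphatases tested, 1 was higher and 8 were not called, with a median log2 fold change of 0.11. The one was Gpat4, listed under its older symbol Agpat6, which encodes a glycerol 3-phosphate acyltransferase of the endoplasmic reticulum. Gpat4 had 230.4, 230.0, 221, 286 and 235 CPM in Chow replicates 1 to 5 and 345, 355, 326, 299 and 318 CPM in TM5614 replicates 1 to 5. All 5 TM5614 livers were above all 5 Chow livers, and the log2 fold change was 0.45 (adjusted p = 0.0293 in edgeR, SE 0.10). The call was lost when any of 8 of the 10 libraries was left out, with log2 fold changes from 0.42 to 0.48 and edgeR adjusted p from 0.0515 to 0.0860. With all libraries kept, DESeq2 (0.45, adjusted p = 0.00022) and limma-voom (0.44, adjusted p = 0.00462) called Gpat4. A fit with the replicate number as a block did not (0.45, edgeR adjusted p = 0.0616).

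Among 15 genes tested of the phospholipid branches, 1 was higher and 14 were not called, with a median of 0.00. Chka, which encodes a choline kinase and so opens the route by which diacylglycerol becomes phosphatidylcholine, had 7.64, 10.1, 10.2, 10.1 and 7.82 CPM in Chow replicates 1 to 5. It had 25.4, 46.8, 30.6, 27.0 and 16.4 CPM in TM5614 replicates 1 to 5. Every TM5614 liver was above every Chow liver, and TM5614 replicate 2 was the highest. The log2 fold change was 1.67 (adjusted p = 0.00223 in edgeR, SE 0.24), and without TM5614 replicate 2 it was 1.43 (edgeR adjusted p = 0.00281). None of the 5 genes tested for glycerol 3-phosphate supply, the 4 diacylglycerol kinases or the 4 other patatin-like genes was called in the first edgeR fit. The median log2 fold changes of these lists were 0.36, -0.09 and 0.20. Without Chow replicate 2, 8 list genes were called, among them 3 of these lists, named after their values were seen. Calls over all genes rose as well in that fit, to 1031 of 11162 from 499 of 11092. Glycerol kinase (Gk, listed as Gyk) was then higher at 0.56 (edgeR adjusted p = 0.00955) and Pnpla7, a lysophospholipase, at 0.48 (edgeR adjusted p = 0.00437). Gpd1l, a relative of glycerol 3-phosphate dehydrogenase, was then lower at -0.37 (edgeR adjusted p = 0.00716). In the first fit, with all libraries, Gk, Pnpla7 and Gpd1l were at 0.78, 0.31 and -0.31, with edgeR adjusted p of 0.125, 0.294 and 0.122. Some other fits that kept all libraries did call them. Limma-voom called Gk, Pnpla7 (0.48, adjusted p = 0.00253) and Gpd1l (-0.37, adjusted p = 0.00504). DESeq2 called Gpd1l (-0.31, adjusted p = 0.0412). The correction for GC content and length and the replicate number as a block, alone or together, called Gk.

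**Figure D5:**
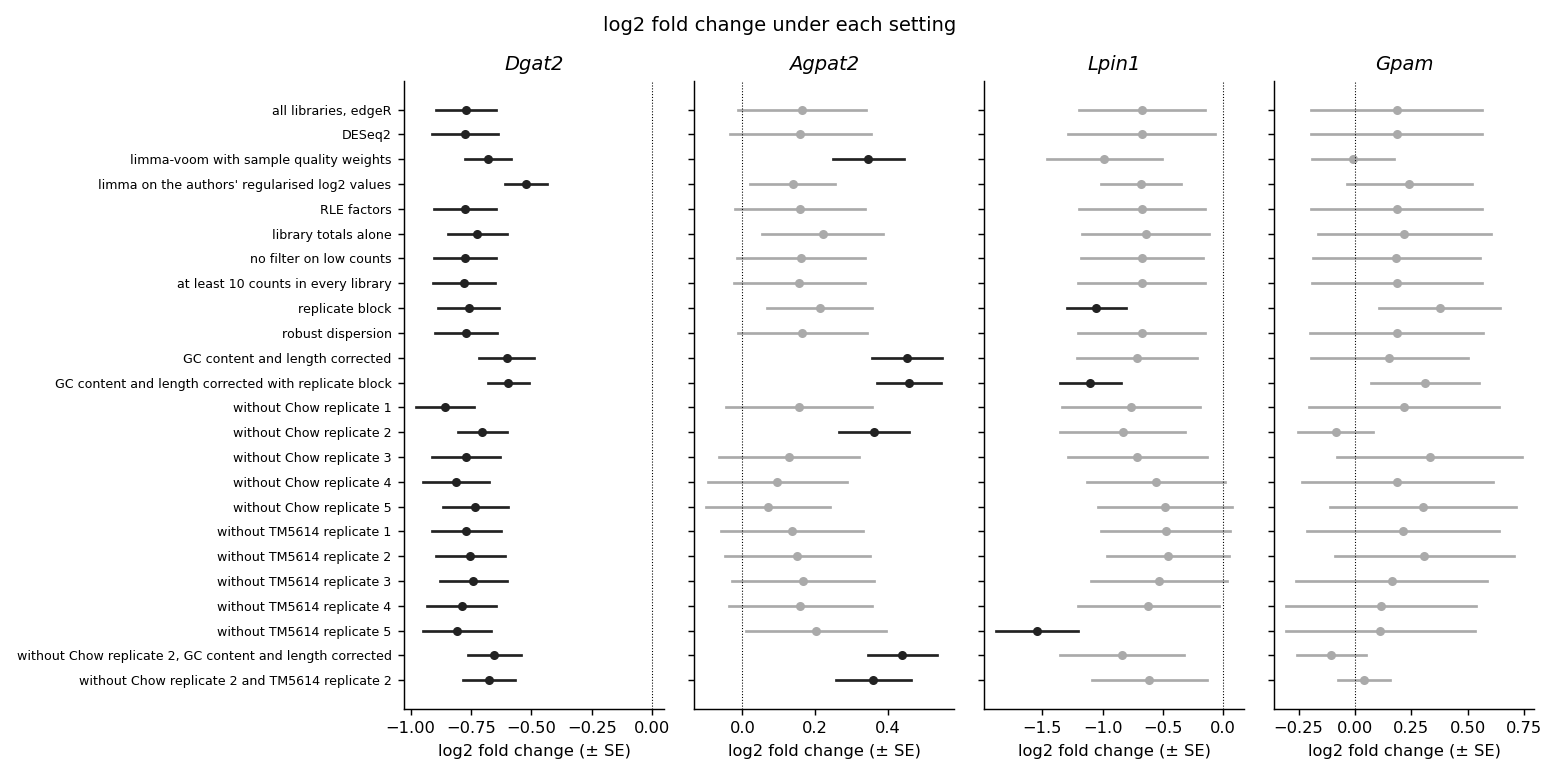
Log2 fold change ± SE of 4 genes under each way of fitting the data, with 1 row per setting, a separate horizontal scale per gene, a dotted line at 0 and black for an adjusted p under 0.05. Dgat2 is below 0 and in black in every row, Agpat2 is in black in 6 rows other than the first, Lpin1 in 3, and Gpam in none.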

How the data were processed

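Poly(A) RNA of 10 livers was sequenced as 75-base single-end reads, and per the study's methods reads were aligned with STAR to mm10 and compared with DESeq2 in Illumina's RNA Express application. The submitters' processing notes also name HOMER. The counting tool, versions, annotation and use of strand are not given in the sources used here. Per gene symbol the authors deposited raw counts, FPKM values scaled by gene length and library, and DESeq2's regularised log2 values, in which low genes are pulled to their mean. A table of the authors' own comparison (fold changes and p-values) was not used. The genes and lists were chosen with earlier results of these data known.

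Counts were tested with edgeR 4.0.16 in R 4.3.3 (filterByExpr, TMM, glmQLFit and glmQLFTest, two-sided, no block), and p was adjusted by Benjamini-Hochberg over 11092 genes, with calls under 0.05. The standard error was the log2 fold change, unsigned, divided by the root of F. CPM are TMM-scaled. The 20 within-group pairs of libraries differed by at least 7.98 in chi-square per degree of freedom, so none was taken for a duplicate. All 10 genes are named, and list genes where called. Locations, GC content and sequences come from GENCODE M21 on GRCm38, the assembly of mm10, matched by symbol, and 7 of the 51 list genes were found under older symbols.

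Alternatives were DESeq2 1.42.0, limma-voom with quality weights and limma 3.58.1 on the regularised log2 values, RLE factors, library totals, 2 other filters, robust dispersion, the replicate number as a block, a spline correction for GC content and length with 5 degrees of freedom each, an adjusted p of 0.01, and each library left out. Leaving out Chow replicate 2 with that correction, or with TM5614 replicate 2, was added after seeing the data. The scripts were tested on simulated data, with 200 of 11011 genes changed 2-fold. At an adjusted p under 0.05, 2.17% of the edgeR calls, 2.21% of the limma-voom calls and 12.4% of the DESeq2 calls were false there. No batch or time of collection is given in the labels, so none entered a fit.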

Additional observations from a re-analysis of the deposited data

Results flagged for a closer look

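In 26 groups of 5 values the highest and lowest library were compared with the next by Dixon's ratio, and 3 values lay further out than its 95% limit of 0.71, where chance gives about 1.3. Lpin1 stood at 307 CPM in TM5614 replicate 5, with the next TM5614 library at 92.8 CPM. The log2 ratio of Lpin1 to Lpin2 was -1.03 in the same library, with the next at -2.47, so this value shares its counts with the first. The log2 ratio of Agpat2 to Agpat3 was -0.18 in Chow replicate 2, with the next Chow library at -0.81, and this is the library whose deviations followed GC content and length. The 21.0 CPM of Gpam in Chow replicate 2, with the next at 106 CPM, had a ratio of 0.687 and stayed inside the limit.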

How the results depend on the processing

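Dgat2 was called lower in all 23 other fits, and Agpat3 kept its direction and was not called in any of 23. The number of these genes called was 2 with limma-voom and with the correction for GC content and length (Agpat2 added), 2 with Chow replicate 2 left out and the correction made, 2 with both replicates numbered 2 left out, and 1 to 2 over the fits that left out 1 library. The replicate number shared between the groups was tried as a block. Same-numbered libraries deviated together with correlations from 0.0316 to 0.318, not all over 0.1, and the best partner had the same number for replicate 2 alone, so the numbers were not taken to pair the mice. With the block 2 genes were called, Lpin1 at -1.05 (edgeR adjusted p = 0.0438) being added, and with block and correction 3, Lpin1 being at -1.10 (edgeR adjusted p = 0.0364). The block also ended the Gpat4 call (0.45, edgeR adjusted p = 0.0616) and added Gyk (0.88, edgeR adjusted p = 0.0356), so the list count stayed at 2 with 1 gene exchanged. Genes called over all tested, 499 at first, were 900 with DESeq2, 1386 with limma-voom, 555 with the block, 184 at an adjusted p of 0.01, 1084 and 1230 in the 2 fits added later, and 235 to 1031 with 1 library left out (lowest without TM5614 replicate 3, highest without Chow replicate 2). List genes called, 2 at first, were 6 with DESeq2, 10 with limma-voom, 5 with the correction, 4 with correction and block, 1 at 0.01, 7 and 10 in the added fits, and 1 to 8 with 1 library left out (highest without Chow replicate 2). Estimates near 0 changed sign. Gpam was -0.01 (-0.0083) with limma-voom, -0.11 with the correction and without Chow replicate 2, and ran from -0.086 (without Chow replicate 2) to 0.33 with 1 library left out. Dgat1 was 0.033 with the correction, 0.036 with correction and block and 0.051 with the correction and without Chow replicate 2, and ran from -0.25 to 0.0032 (without Chow replicate 2) with 1 library left out. Lpin2 ran from -0.23 to 0.052 (without TM5614 replicate 2) with 1 library left out. The cause of these shifts was not tested. Scaling by library totals moved the median of all genes from 0.01 to 0.06. The order by counts per kilobase of annotated exons was that by FPKM in Chow, and in TM5614 Agpat3 and Lpin2 changed places. Depth limits Mogat1, Pnpla3 and Pnpla5, which had at most 17 counts in a library.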

Other observations

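In 8 of the 37 list genes tested (21.6%) the groups did not overlap in CPM, against 8.93% of all genes. The lists were chosen with earlier results of these data known, so these shares cannot be read as an enrichment, and none was tested. Besides Gpat4 and Chka, called above, these were 6 genes that did not pass the threshold, named here after their values were seen. Glycerol kinase (Gk, listed as Gyk), which makes glycerol 3-phosphate from glycerol, had 52.9 to 175 CPM in Chow and 186 to 271 CPM in TM5614 (log2 fold change 0.78, edgeR adjusted p = 0.125). Its lowest Chow library was replicate 2, and Gk was called higher in 7 of 23 other fits, which include the correction for GC content and length with all libraries kept (0.64, edgeR adjusted p = 0.0253) and limma-voom (0.64, adjusted p = 0.00348). Selenoi (listed as Ept1), an ethanolamine phosphotransferase, had 31.3 to 65.6 CPM in Chow and 66.1 to 91.7 CPM in TM5614 (0.60, edgeR adjusted p = 0.113). Limma-voom (0.47, adjusted p = 0.0281) and the correction for GC content and length (0.45, edgeR adjusted p = 0.0435) called Selenoi higher. DESeq2 (0.60, adjusted p = 0.0515) and the fit without Chow replicate 2 (0.45, edgeR adjusted p = 0.0581) did not. Dgka, a diacylglycerol kinase, had 6.43 to 8.004 CPM in Chow and 8.05 to 9.44 CPM in TM5614 (0.29, edgeR adjusted p = 0.227).

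The other 3 had lower values in TM5614. Pemt, which methylates phosphatidylethanolamine to phosphatidylcholine, had 191 to 443 CPM in Chow and 139 to 187 CPM in TM5614 (-0.69, edgeR adjusted p = 0.103). Pcyt2, which makes CDP-ethanolamine, had 295 to 528 CPM in Chow and 254 to 283 CPM in TM5614 (-0.47, edgeR adjusted p = 0.107). Agpat1, an acyltransferase of the same step as Agpat2, had 9.10 to 16.6 CPM in Chow and 5.60 to 8.21 CPM in TM5614 (-0.66, edgeR adjusted p = 0.0756). Chow replicate 2 was the highest library for these 3 genes. Without it they were at -0.41, -0.31 and -0.49, with edgeR adjusted p of 0.0214, 0.0336 and 0.0484. After the correction for GC content and length, with all libraries kept, they were at -0.44, -0.25 and -0.42. The edgeR adjusted p was then 0.0192 for Pemt, 0.0932 for Pcyt2 and 0.0752 for Agpat1. With the correction and without Chow replicate 2, Pcyt2 and Agpat1 were again not called (edgeR adjusted p = 0.0742 and 0.0703).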
